A study of Mus musculus with 17 samples.

Results

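Myeloid leukemia that arose from transformed granulocyte-macrophage progenitors (GMP) was compared with healthy GMP on 7 of the 17 microarrays of the series, assigned to their groups by their labels. The 5 leukemia arrays hold CD11b and Gr1 double-positive spleen cells, depleted of CD3-, CD4- and CD8-positive cells, from recipient mice that had been injected with malignant cells made from GMP carrying the labels' Myc/Bcl2 transformation. Donors were wildtype C57/Bl6 CD45.2 mice, and recipients were 4 to 8 weeks old and had received 4.5 to 6 Gy of total body irradiation. The 2 reference arrays hold GMP of healthy bone marrow, with the same wildtype C57/Bl6 labels and no stated age. The other 10 arrays hold leukemias of LSK origin (3 arrays), leukemias labelled as of DN2 origin (5 arrays) and healthy thymic DN2 cells (2 arrays). They entered the fit, and the DN2 arrays also give a second comparison of leukemia with its healthy cell of origin.

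What the comparison can show is limited by its design. Leukemia and healthy GMP differ in transformation, in tissue (spleen against marrow), in passage through an irradiated recipient and in the surface markers used for sorting, and these cannot be told apart. The sort as described names no donor marker, so normal myeloid cells of the recipient may be present, and their share was not measured. Nothing in the labels says that the arrays of a group come from separate mice, so p-values measure only the spread between samples, which may be technical. That spread was pooled within the groups of all 17 arrays. Standard errors and p-values below therefore also carry the spread among the LSK and DN2-labelled arrays. They can be wide for a gene whose listed values lie close together.

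GMP are committed marrow progenitors that give rise to neutrophils and monocytes. As a neutrophil matures it fills its granules in order, first with myeloperoxidase and serine proteases, then with the proteins of secondary and tertiary granules, while it leaves the cell cycle and gains receptors for chemoattractants and adhesion. Myc is a transcription factor that drives growth and division, and Bcl2 is a mitochondrial protein that blocks apoptosis. Enforced together they transform blood progenitors in mice.

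Of 11629 genes tested with limma, 2463 were called at an adjusted p under 0.05, which is 21.2% of the genes. There were 940 genes higher in the leukemia (8.08% of all tested) and 1523 lower (13.1%). Counts of called members of each gene list below are to be read beside these shares. A difference of at least 2-fold was seen for 1755 of the called genes, 759 of them higher and 996 lower. The median difference over all genes tested was -0.12 on the log2 scale, and differences below are not corrected for it. All values below are log2 expression, differences are leukemia minus healthy, and the median of the whole table is 3.83, close to which signal is background and differences are compressed. When healthy array 1 was left out, 889 genes were called, and 848 without healthy array 2, since a single healthy array then stands for its group. Of the 140 genes named by rule that were called, 65 kept their call whichever of the 7 arrays was left out. Of the 24 genes with the largest changes, 20 did so.

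Some single calls also depended on other settings. A fit of only the 7 arrays compared called 1761 genes. Of the genes described below, F13a1, Cebpa, Stat3, Cst7, Nkg7, Srgn, Il17ra, Csf2rb2, Flt3, Hemgn, Umps, Chac1, Gins1, Foxm1, Ccnd2, Pfkfb4, Cycs, Manf, Ezh1, Mlxip and Mnt were not called in it (adjusted p = 0.0532 for Il17ra to 0.152 for Mlxip). Without a filter on low values the calls of Cebpa, S100a9, Ifngr1, Csf2rb2, Foxm1, Pfkfb4, Mlxip and Mnt were lost (adjusted p = 0.0524 for Mnt to 0.0716 for Cebpa). Centring each array on its median moved the median difference over all genes to -0.01. It ended the calls of Cebpa, Ifngr1, Rrp12, Foxm1, Mlxip and Mnt (adjusted p = 0.0506 for Cebpa to 0.087 for Ifngr1). With the mean of a gene's probe sets, Cenpa, Mnt and Ezh1 were not called (adjusted p = 0.235, 0.106 and 0.101).

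The leukemia arrays were not alike. Pearson correlations over the genes ran from 0.933 to 0.99 among the leukemia arrays and reached 0.994 between the healthy arrays, as a description across genes. Leukemia arrays 2 and 4 correlated with the healthy arrays at 0.907 to 0.927, whereas arrays 1, 3 and 5 did so at 0.845 to 0.862. Leukemia array 2 also stood apart at sex-linked genes. The Y-linked gene Eif2s3y measured 2.79, 9.89, 2.78, 2.84 and 2.75 in leukemia arrays 1 to 5, against 2.87 and 3.03 in the healthy arrays. Xist, the RNA that silences an X chromosome in female cells, measured 12.92, 6.84, 12.02, 11.85 and 12.54 in leukemia arrays 1 to 5, against 11.98 and 11.88 in the healthy arrays. Array 2 alone had Y-linked signal and low Xist, while the remaining 6 arrays had high Xist, and the labels do not state the sex of the mice. No gene was tested between these sets of leukemia arrays.

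**Figure D1:**
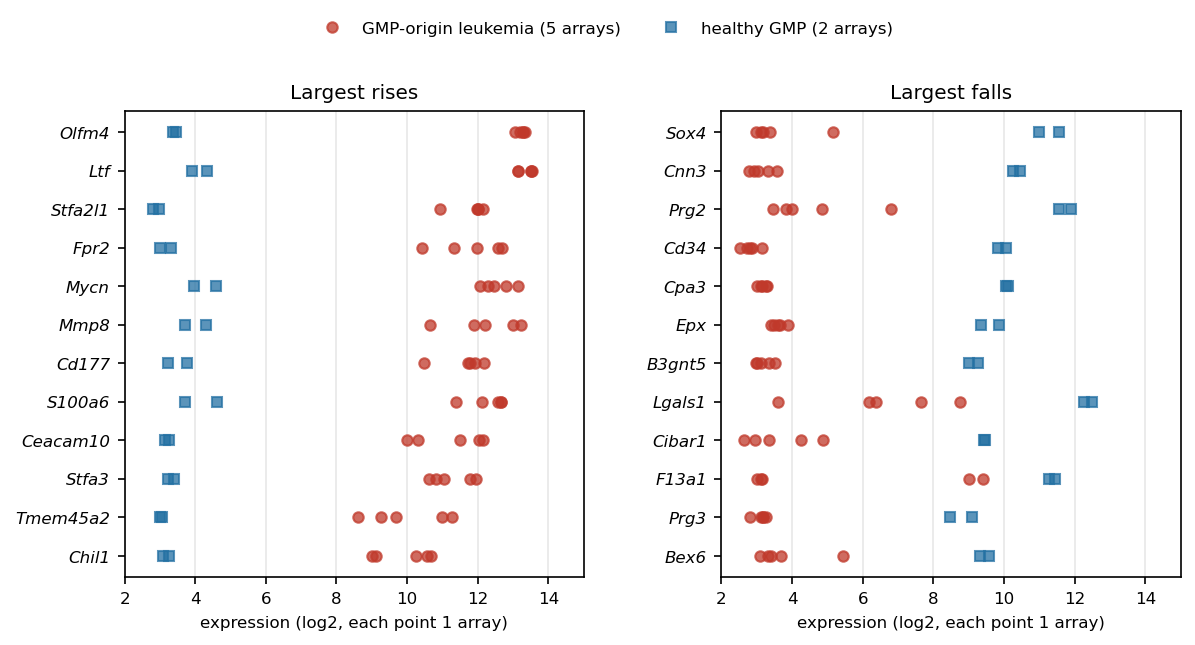
Expression (log2) of the 12 genes with the largest rise (left) and the 12 with the largest fall (right), with each of the 5 GMP-origin leukemia arrays as a circle and each of the 2 healthy GMP arrays as a square. These 24 genes were chosen among called genes whose groups do not overlap, as is so for 43.5% of all genes tested, and F13a1 splits the leukemia arrays into 3 low and 2 high values.

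The genes of the transformation and of the sort were examined first. Mycn, the N-Myc gene of the same family as Myc, measured 13.15, 12.79, 12.28, 12.06 and 12.45 in leukemia arrays 1 to 5, against 3.96 and 4.58 in the healthy arrays. Its level was high in all 5 leukemias and near background in both healthy arrays, and it rose by 8.28 ± 1.51 (SE, adjusted p = 0.00147). The 2 other probe sets of Mycn stayed near background, averaging 2.79 and 3.38 in the leukemias, against 3.33 and 3.41 in healthy GMP. Myc itself measured 6.49, 5.99, 5.68, 5.64 and 6.41 in leukemia arrays 1 to 5, against 10.65 and 10.37 in the healthy arrays. It was lower in every leukemia array than in either healthy array and fell by 4.46 (SE 0.26, adjusted p = 2.19e-08). The labels say Myc without naming the gene or construct, and a transgene is seen only by probe sets that lie within it.

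Bcl2, whose protein blocks cell death, gave opposite answers on its 2 probe sets. On the brighter one it measured 11.53, 10.91, 10.32, 10.08 and 10.95 in leukemia arrays 1 to 5, against 6.51 and 5.89 in the healthy arrays, high in all leukemias, a difference of 4.56 ± 1.03 (SE, adjusted p = 0.00626). On the second it averaged 3.83 in the leukemias and 8.76 in healthy GMP, a difference of -4.93. Which part of the transcript each probe set reads was not analysed here. Without healthy array 2 the call on the brighter probe set was lost (adjusted p = 0.0872).

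Itgam, which encodes the CD11b integrin chain used in the sort, measured 9.23, 8.15, 9.88, 8.06 and 9.95 in leukemia arrays 1 to 5, against 5.21 and 4.67 in the healthy arrays. All leukemia arrays lay above both healthy ones, with a difference of 4.12 ± 1.04 (SE, adjusted p = 0.0125), although the call was lost when either healthy array was left out (adjusted p = 0.0788 without healthy array 1 and 0.127 without healthy array 2). Ly6g, one of the antigens seen by Gr1 antibodies, was not analysed here. Cd3e, a T-cell receptor chain gene excluded by the sort, measured 5.24, 5.20, 5.05, 5.06 and 5.11 in the leukemias, against 5.16 and 5.33 in healthy GMP, and the groups overlapped (difference -0.12 ± 0.24 (SE, adjusted p = 0.781)). Its partner chain Cd3d, in contrast, measured 7.08, 6.95, 8.53, 7.41 and 8.07 in the leukemias, against 3.85 and 3.44 in healthy GMP. Every leukemia was above healthy GMP at Cd3d, which rose by 3.96 ± 0.46 (SE, adjusted p = 3.13e-05).

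Genes that define the GMP label were high in the healthy arrays, which is no separate check of that label. Cd34 also averaged 9.04 in healthy DN2 cells. Eosinophil, basophil and platelet genes were high in healthy GMP too, as given below. Cd34, a surface sialomucin of progenitors, measured 10.06 and 9.84, the stem cell factor receptor Kit 9.54 and 9.46 and myeloperoxidase Mpo 13.88 and 13.95 in healthy GMP.

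Genes of secondary and tertiary neutrophil granules had the largest share of rising members and the largest median difference of the 39 lists. Of the 16 members tested, 13 rose and 0 fell, and the list's median difference was 5.80, against -0.12 over all genes. The count of 13 was the same whichever of the 7 arrays was left out. The promoters of 4 of these genes, from 250 bases before to 50 after the start site, are shown because this group moved together. Capitals mark matches to TTGCNNAA, searched on both strands, a short form of the site bound by C/EBP factors, which regulate granule genes. Sequences are from RefSeq on GRCm38.p6, written on the gene's strand.
Olfm4 (chr14:80000052-80000351, plus strand): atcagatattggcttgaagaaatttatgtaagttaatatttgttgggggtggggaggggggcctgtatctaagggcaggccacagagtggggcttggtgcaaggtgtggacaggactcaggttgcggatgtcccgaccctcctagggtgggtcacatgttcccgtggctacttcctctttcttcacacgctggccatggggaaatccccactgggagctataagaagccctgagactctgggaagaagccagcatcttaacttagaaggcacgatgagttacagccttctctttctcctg
Ltf (chr9:111019042-111019341, plus strand): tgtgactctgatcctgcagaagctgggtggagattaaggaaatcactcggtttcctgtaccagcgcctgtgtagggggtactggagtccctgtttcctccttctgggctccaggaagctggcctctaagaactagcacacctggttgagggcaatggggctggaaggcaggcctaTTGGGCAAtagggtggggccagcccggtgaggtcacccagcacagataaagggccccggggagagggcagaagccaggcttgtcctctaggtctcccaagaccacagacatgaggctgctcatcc
Mmp8 (chr9:7558179-7558478, plus strand): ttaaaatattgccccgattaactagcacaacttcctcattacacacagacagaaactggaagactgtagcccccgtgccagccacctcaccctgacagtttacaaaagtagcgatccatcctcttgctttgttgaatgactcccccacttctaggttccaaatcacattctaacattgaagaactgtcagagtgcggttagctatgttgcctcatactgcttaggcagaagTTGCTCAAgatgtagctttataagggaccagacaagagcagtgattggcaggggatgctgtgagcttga
Ngp (chr9:110419558-110419857, plus strand): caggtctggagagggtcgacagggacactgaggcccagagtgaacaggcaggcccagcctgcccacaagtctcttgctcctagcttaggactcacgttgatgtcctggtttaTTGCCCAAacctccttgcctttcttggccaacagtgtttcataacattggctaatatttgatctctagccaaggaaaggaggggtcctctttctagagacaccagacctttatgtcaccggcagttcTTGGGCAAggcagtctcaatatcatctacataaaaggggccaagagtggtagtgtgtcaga

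The match begins at position -75 from the start site in Ltf and -19 in Mmp8, and Ngp, chosen for display after its values were seen, has matches at -138 and -11. Olfm4, which rose most of all genes, has none in this window. Cd177, whose rise was larger than that of Ngp, was not displayed and has none either. The promoters shown therefore hold the motif more often than the list does. Among the 14 list members with a promoter sequence, 6 held the motif (42.9%), against 12.2% of the 27025 promoters of all genes, tested here or not. These matches describe letters only and were not tested for binding.

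Olfm4 encodes olfactomedin 4, a glycoprotein of the granules of a subset of neutrophils. It measured 13.20, 13.27, 13.27, 13.04 and 13.34 in leukemia arrays 1 to 5, against 3.44 and 3.36 in the healthy arrays. The 5 leukemias lay within a narrow band near the top of the scale while healthy GMP was at background, a difference of 9.83 ± 0.31 (SE, adjusted p = 2.87e-11). Ltf, lactoferrin, the iron-binding protein that defines secondary granules, measured 13.50, 13.14, 13.54, 13.14 and 13.52 in the leukemias, against 4.34 and 3.92 in healthy GMP. Its values too were uniform across the leukemias, with a rise of 9.24 ± 0.40 (SE, adjusted p = 9.98e-10). Mmp8, neutrophil collagenase, measured 12.21, 11.90, 13.22, 10.64 and 13.003 in the leukemias, against 4.31 and 3.71 in healthy GMP. Leukemia array 4 was the lowest of the 5, yet remained far above healthy GMP, and the rise was 8.18 ± 0.75 (SE, adjusted p = 2.71e-06).

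Cd177, a neutrophil surface protein stored in secondary granules, measured 12.18, 11.73, 11.92, 10.47 and 11.78 in the leukemias, against 3.22 and 3.77 in healthy GMP, again with array 4 lowest, and rose by 8.12 ± 0.66 (SE, adjusted p = 6.69e-07). Mmp9, the gelatinase that marks tertiary granules, measured 9.26, 9.29, 11.44, 9.05 and 10.37 in the leukemias, against 3.42 and 3.49 in healthy GMP, with array 3 highest. It rose by 6.43 ± 0.87 (SE, adjusted p = 0.000124). The list mean was 11.997, 11.58, 12.27, 11.15 and 12.11 in leukemia arrays 1 to 5, against 6.49 and 6.56 in the healthy arrays. Arrays 2 and 4 had the lowest means of the leukemias, and all 5 were far above both healthy arrays.

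Cysteine protease inhibitors of the stefin A cluster, abundant in mouse neutrophils, rose as steeply. Of 5 stefin and cystatin genes tested, 2 rose and 1 fell. Stfa2l1 measured 12.02, 12.15, 11.99, 10.94 and 11.97 in the leukemias, against 2.80 and 2.99 in healthy GMP, high in all leukemias with array 4 lowest, a rise of 8.92 ± 0.58 (SE, adjusted p = 7.5e-08). Stfa3 measured 10.81, 11.04, 11.95, 10.61 and 11.79 in the leukemias, against 3.24 and 3.41 in healthy GMP and rose by 7.92 ± 0.40 (SE, adjusted p = 4.32e-09). These genes are near-identical copies of one another, so signal may be shared between probe sets. Of the wider cystatins, Cst7 fell by 5.24, as described with the primary granules, and Cstb and Cst3 were not called. Cstb, which inhibits lysosomal cathepsins, differed by 0.08 ± 0.28 (SE, adjusted p = 0.882) and Cst3 by -0.27 ± 0.43 (SE, adjusted p = 0.705).

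Calcium-binding S100 and membrane-binding annexin genes gave 6 rises and 2 falls among 15 tested. The rises numbered 3 without healthy array 1 and 3 without healthy array 2. S100a6 measured 12.65, 12.13, 12.58, 11.39 and 12.66 in leukemia arrays 1 to 5, against 4.63 and 3.72 in the healthy arrays. The groups were far apart, with a rise of 8.11 ± 0.36 (SE, adjusted p = 1.02e-09). S100a4, linked to cell motility, rose by 4.43 ± 0.88 (SE, adjusted p = 0.00275), and Anxa2 by 2.12 ± 0.52 (SE, adjusted p = 0.0104). S100a9, the neutrophil alarmin subunit, was already high in healthy GMP. It measured 13.99, 13.77, 14.08, 13.96 and 14.11 in the leukemias, against 10.73 and 11.28 in healthy GMP, and its rise of 2.97 ± 0.98 (SE, adjusted p = 0.0447) lost its call when any array other than leukemia array 4 was left out (adjusted p = 0.049 to 0.239 over the 7 omissions). S100a1 fell, by 2.43, and the calls of Anxa2 and S100a1 were lost without either healthy array (Anxa2 adjusted p = 0.083 without healthy array 1 and 0.0989 without healthy array 2, S100a1 adjusted p = 0.0825 without healthy array 1 and 0.13 without healthy array 2).

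Receptors and adhesion molecules of mature neutrophils rose in 9 of 20 members and fell in 0, with a median difference of 2.48. The count was 7 without healthy array 1 and 7 without healthy array 2. Fpr2, a formyl peptide receptor for bacterial products, measured 11.99, 11.34, 12.69, 10.42 and 12.56 in leukemia arrays 1 to 5, against 3.32 and 2.99 in the healthy arrays. Every leukemia exceeded healthy GMP by a wide margin, and the rise was 8.64 ± 1.04 (SE, adjusted p = 4.2e-05). The decoy interleukin-1 receptor Il1r2 measured 8.79, 9.59, 9.60, 8.93 and 9.05 in the leukemias, against 4.17 and 3.76 in healthy GMP and rose by 5.23 ± 0.69 (SE, adjusted p = 0.000105). C5ar1, the receptor of complement fragment C5a, measured 8.66, 6.96, 8.95, 6.92 and 8.94 in the leukemias, against 2.89 and 3.01 in healthy GMP, highest in arrays 1, 3 and 5, and rose by 5.13 ± 0.77 (SE, adjusted p = 0.00028). Il1b, the inflammatory cytokine interleukin-1 beta, measured 9.74, 7.39, 10.59, 10.30 and 10.71 in the leukemias, against 4.13 and 4.63 in healthy GMP, lowest in array 2, and rose by 5.37 ± 0.93 (SE, adjusted p = 0.000973). Ccr1, a chemokine receptor, rose by 4.38 ± 0.73 (SE, adjusted p = 0.000767).

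In the oxidative burst enzyme, 1 of 6 members was called, against 21.2% of all genes. Cyba, its small membrane subunit, rose by 1.34 ± 0.31 (SE, adjusted p = 0.00782), a call lost without either healthy array (adjusted p = 0.0892 without healthy array 1 and 0.0652 without healthy array 2). Its catalytic partner Cybb measured 12.22, 12.08, 12.76, 11.59 and 12.31 in the leukemias, against 9.13 and 8.92 in healthy GMP, with no overlap but no call (adjusted p = 0.109). This probe set differed by 3.17. Other probe sets of Cybb differed by more, 4.50 and 4.22, and were not tested singly. Toll-like receptor genes had 3 rises and 0 falls of 13, against 8.08% higher of all genes, and the calls did not hold when either healthy array was left out. They were Tlr7, which senses single-stranded RNA (difference 4.03, adjusted p = 0.0143 to 0.174 over the 7 omissions), Tlr6 (difference 2.65) and the endotoxin co-receptor Cd14 (difference 2.81). Tlr6 and Cd14 lost their calls only without a healthy array (adjusted p = 0.0776 without healthy array 1 and 0.116 without healthy array 2 for Tlr6, and 0.106 without healthy array 1 and 0.155 without healthy array 2 for Cd14).

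**Figure D2:**
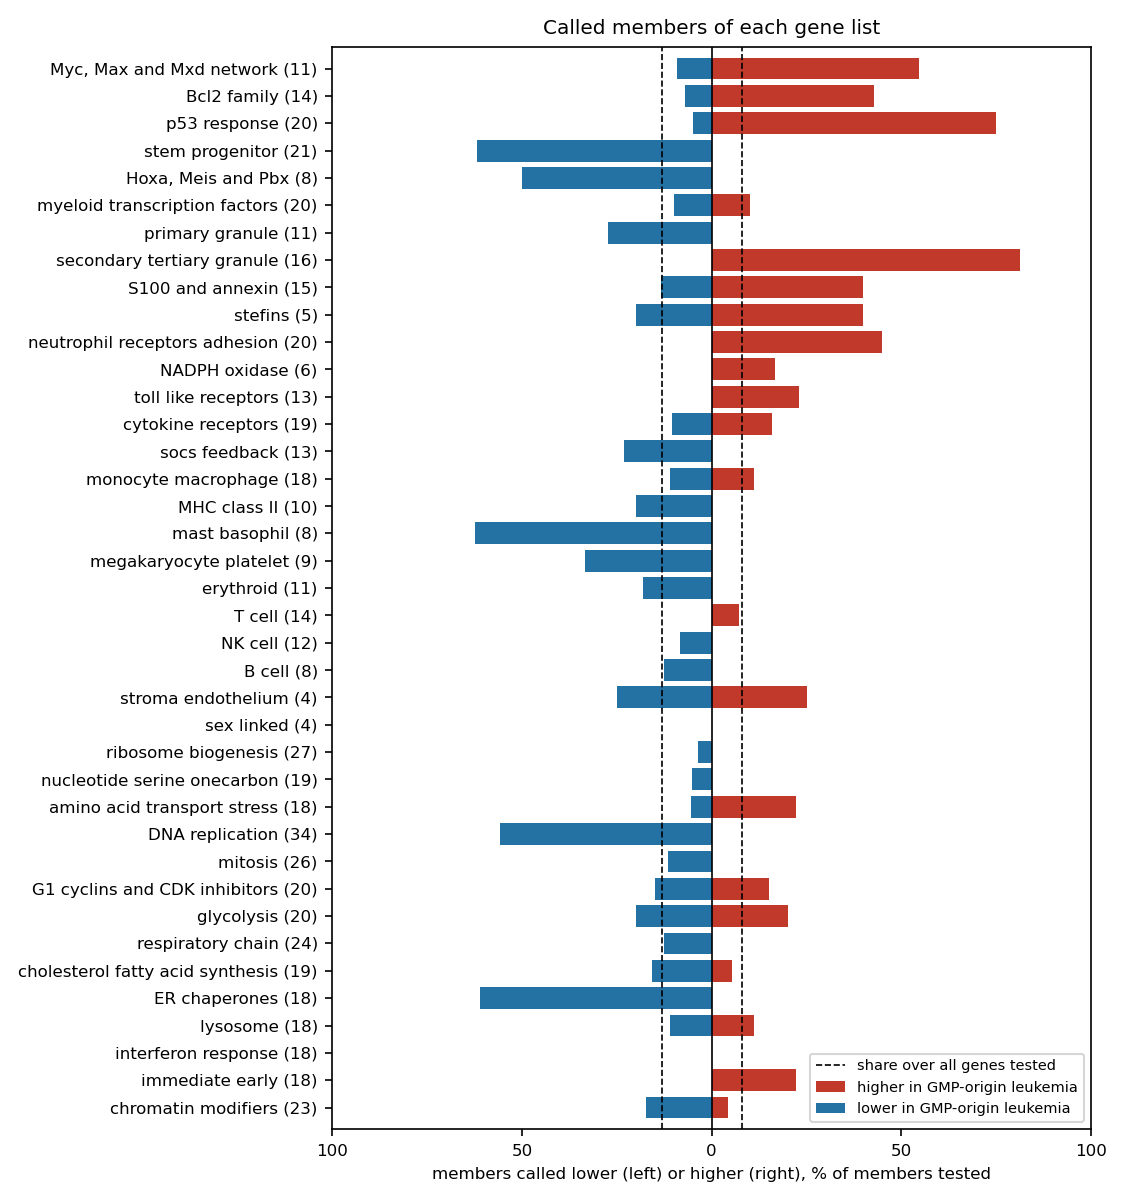
Share of tested members called higher (right, red) or lower (left, blue) in GMP-origin leukemia for each of 39 gene lists, in % of the members tested, whose number is in brackets. Dashed lines mark the shares over all 11629 genes, 8.08% higher and 13.1% lower; late granule genes and p53 response genes extend furthest to the right, and mast cell, progenitor and ER chaperone genes furthest to the left.

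Genes of stem and progenitor cells fell or were not called. Of 21 tested, 13 fell and 0 rose, against 13.1% lower of all genes, with a median difference of -2.11. Cd34 and Kit, given above as genes that define the GMP label, are among those that fell. Their falls therefore cannot be told apart from the choice of cells. The count of falls was 9 without healthy array 1 and 10 without healthy array 2. Sox4, a transcription factor of immature blood cells, measured 2.99, 5.15, 3.19, 3.11 and 3.36 in leukemia arrays 1 to 5, against 11.56 and 10.997 in the healthy arrays. Array 2 stood above the other leukemias but still far below healthy GMP, and Sox4 had the largest fall of all 11629 genes tested, -7.72 ± 0.58 (SE, adjusted p = 3.22e-07). Cd34 measured 2.71, 2.52, 2.80, 2.87 and 3.16 in the leukemias, against 10.06 and 9.84 in healthy GMP, at background in every leukemia, a difference of -7.14 ± 0.18 (SE, adjusted p = 4.79e-12). Kit measured 3.26, 6.81, 3.30, 6.67 and 3.18 in the leukemias, against 9.54 and 9.46 in healthy GMP. Its signal was at background in arrays 1, 3 and 5 and intermediate in arrays 2 and 4, with no overlap and a difference of -4.86 ± 0.88 (SE, adjusted p = 0.00141).

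Cd93, a surface receptor of early progenitors, differed by -4.64 ± 0.76 (SE, adjusted p = 0.000674), and Muc13, a membrane mucin, by -4.27 ± 0.27 (SE, adjusted p = 5.71e-08). Flt3, the receptor of early lymphoid and myeloid progenitors, measured 3.45, 6.35, 3.60, 4.27 and 3.36 in the leukemias, against 7.45 and 5.93 in healthy GMP. Array 2 lay between the healthy values, and the fall of 2.49 lost its call when leukemia array 1, 3 or 5 or either healthy array was left out (adjusted p = 0.00229 to 0.303 over the 7 omissions). Cdk6, a kinase of G1 that restrains myeloid differentiation, differed by -1.81 ± 0.40 (SE, adjusted p = 0.00585), and lost its call without healthy array 1 (adjusted p = 0.0788).

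The homeobox genes of the Hoxa cluster and their Meis and Pbx partners, which sustain self-renewal and are high in many acute leukemias, gave 4 falls and 0 rises of 8 tested. Hoxa9 measured 3.64, 3.87, 3.73, 3.94 and 3.81 in the leukemias, against 5.15 and 4.95 in healthy GMP. All leukemia values were at background and below both healthy values, a difference of -1.25 ± 0.18 (SE, adjusted p = 0.000171). Meis1, its DNA-binding partner, measured 3.11, 3.08, 3.09, 3.21 and 3.24 in the leukemias, against 7.05 and 6.14 in healthy GMP, with a difference of -3.45 ± 0.23 (SE, adjusted p = 8.77e-08). Hoxa7 fell by 2.16 and Hoxa5 by 1.83, and all 4 calls held under every omission. Pbx3 did not pass the test (adjusted p = 0.372).

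Genes of other cell lineages that arise near the GMP stage were examined next. In these bulk samples fewer cells of a type and less RNA per cell cannot be told apart. Of 8 mast cell and basophil genes, 5 fell and 0 rose, against 13.1% of all genes lower, with a median difference of -2.90. Cpa3, the mast cell carboxypeptidase, measured 3.02, 3.25, 3.15, 3.11 and 3.30 in the leukemias, against 10.04 and 10.11 in healthy GMP, a difference of -6.91 ± 0.29 (SE, adjusted p = 6.98e-10). Mcpt8, a basophil protease, measured 5.82, 6.95, 4.15, 6.71 and 4.15 in the leukemias, against 10.56 and 10.88 in healthy GMP, with arrays 1, 2 and 4 retaining some signal, and differed by -5.16 ± 0.73 (SE, adjusted p = 0.000172). Ms4a2 and Fcer1a, subunits of the high-affinity IgE receptor, fell by 4.68 and 2.75, as did Gata2, a transcription factor of mast cells and stem cells, by 3.05.

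Eosinophil granule genes were among the largest falls. Prg2, the major basic protein, measured 3.45, 3.82, 4.85, 3.99 and 6.81 in leukemia arrays 1 to 5, against 11.89 and 11.56 in the healthy arrays. The leukemia values varied widely, all below healthy GMP, with a difference of -7.14 ± 1.56 (SE, adjusted p = 0.00508). Epx, eosinophil peroxidase, measured 3.41, 3.48, 3.67, 3.60 and 3.90 in the leukemias, against 9.35 and 9.86 in healthy GMP and differed by -5.99 ± 1.48 (SE, adjusted p = 0.0107). The related Prg3 differed by -5.66 ± 1.29 (SE, adjusted p = 0.00674). All 3 calls were lost without either healthy array (adjusted p = 0.0638 without healthy array 1 and 0.0546 without healthy array 2 for Prg2, 0.0781 without healthy array 1 and 0.109 without healthy array 2 for Epx, and 0.0562 without healthy array 1 and 0.0867 without healthy array 2 for Prg3).

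Platelet genes fell in 3 of 9 and rose in 0, against 13.1% lower of all genes. Pf4, platelet factor 4, measured 3.36, 3.36, 3.43, 3.43 and 3.20 in the leukemias, against 9.08 and 8.20 in healthy GMP, at background in all leukemias, with a difference of -5.28 ± 0.22 (SE, adjusted p = 6.98e-10). Gp9, a chain of the platelet von Willebrand receptor, fell by 1.63. The third was Treml1 (difference -0.72), lost without healthy array 2 (adjusted p = 0.153). Of 11 erythroid genes 2 fell, a share near the 13.1% of all genes, with carbonic anhydrase Car2 differing by -3.60 ± 0.61 (SE, adjusted p = 0.000888). The erythroid list mean was 4.90, 6.05, 4.99, 4.93 and 4.88 in leukemia arrays 1 to 5, against 6.13 and 5.61 in the healthy arrays, so that leukemia array 2 stood near the healthy level. The second, Hemgn (difference -1.66), lost its call without leukemia array 5 or healthy array 1 (adjusted p = 0.00227 to 0.501 over the omissions).

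Markers of lymphoid and stromal cells gave few calls, to be read beside the 8.08% higher and 13.1% lower of all genes. Of 14 T-cell genes 1 rose, Cd3d, and 0 fell, and their mean was 3.81, 3.82, 4.02, 4.11 and 4.15 in leukemia arrays 1 to 5, against 3.78 and 3.72 in the healthy arrays. Bcl11b, a T-lineage transcription factor, measured 3.52, 2.80, 5.71, 3.19 and 7.35 in the leukemias, against 3.06 and 3.15 in healthy GMP, raised in arrays 3 and 5 only and not called (adjusted p = 0.286). Among 12 NK-cell genes the only call was a fall of Nkg7, a granule membrane protein that GMP also express, and among 8 B-cell genes a fall of Cd79b (difference -3.36 ± 0.54 (SE, adjusted p = 0.000505)), a chain of the B-cell receptor complex. Of 4 stromal and endothelial genes tested, smooth-muscle actin Acta2 rose by 3.94 ± 0.43 (SE, adjusted p = 1.75e-05) and the adhesion molecule Pecam1 fell by 2.60. The other probe set of Acta2 stayed at background, averaging 3.01 in the leukemias and 3.10 in healthy GMP. The Pecam1 call was lost without healthy array 1. Antigen presentation and dendritic cell genes had 2 falls among 10, against 13.1% lower of all genes. They were H2-DMa and Flt3, which is also counted among the progenitor genes and lost its call as given there. H2-DMa, a peptide-loading chaperone, measured 3.90, 4.69, 4.80, 5.87 and 5.37 in the leukemias, against 9.24 and 9.06 in healthy GMP (difference -4.22 ± 0.77 (SE, adjusted p = 0.00142)).

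Primary granule genes, high in healthy GMP, divided the leukemia arrays. Mpo measured 7.71, 13.34, 7.95, 13.36 and 8.87 in leukemia arrays 1 to 5, against 13.88 and 13.95 in the healthy arrays. Arrays 2 and 4 were close to healthy GMP and arrays 1, 3 and 5 far below, and Mpo was not called (difference -3.67 ± 1.40 (SE, adjusted p = 0.0753)). Elane, neutrophil elastase, measured 7.72, 12.11, 6.98, 12.20 and 7.15 in the leukemias, against 12.32 and 12.39 in healthy GMP, in the same order, and was not called either (adjusted p = 0.107). Of 11 members 3 fell and 0 rose, against 13.1% lower of all genes. The 3 were Cst7, an inhibitor of granule proteases, Nkg7, and Srgn, the proteoglycan core that packs granule proteins. In the fit of only the 7 arrays compared, 1 member rose and 0 fell. There was also 1 member above both healthy arrays in all 5 leukemias, and the largest difference in the list was 2.25.

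The Cst7 difference was -5.24 ± 1.35 (SE, adjusted p = 0.0139), that of Nkg7 -3.87 ± 1.11 (SE, adjusted p = 0.0231) and that of Srgn -0.76 ± 0.19 (SE, adjusted p = 0.0123). All 3 calls were lost without either healthy array, where 0 members of the list were called. Without leukemia array 2, and likewise without leukemia array 4, 7 members fell. The list mean was 9.08, 11.93, 9.22, 11.90 and 9.46 in leukemia arrays 1 to 5, against 12.42 and 12.46 in the healthy arrays.

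Some monocyte genes were also higher in leukemia arrays 2 and 4 than in the other 3, a pattern that was seen in the values and not tested. F13a1, the coagulation factor XIII A chain of monocytes and platelets, measured 3.01, 9.41, 3.11, 8.999 and 3.16 in the leukemias, against 11.45 and 11.26 in healthy GMP. Arrays 2 and 4 were high and the other 3 at background, with a difference of -5.82 ± 1.66 (SE, adjusted p = 0.0225) that lost its call without either healthy array (adjusted p = 0.143 without healthy array 1 and 0.142 without healthy array 2). Ms4a6c measured 3.99, 7.25, 4.25, 8.04 and 4.39 in the leukemias, against 10.32 and 9.73 in healthy GMP (adjusted p = 0.0222) and Ly86, a partner of a Toll-like receptor homologue, 3.40, 8.64, 4.03, 9.97 and 4.94 in the leukemias, against 10.89 and 10.72 in healthy GMP (adjusted p = 0.0806). Of 18 monocyte and macrophage genes 2 fell, F13a1 and Ms4a6c, and 2 rose, the lysosomal protein Cd68 (difference 3.02) and Cd14. Both counts are near the 13.1% lower and 8.08% higher of all genes. Cd68 ran from 10.57 to 11.26 and Cd14 from 10.44 to 11.46 over the leukemia arrays, without that order. The list mean was 5.45, 6.54, 5.69, 6.83 and 6.16 in leukemia arrays 1 to 5, against 6.46 and 6.32 in the healthy arrays, so the groups overlapped. The counts of rises were 0 without healthy array 1 and 0 without healthy array 2, those of falls 0 without healthy array 1 and 1 without healthy array 2.

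Irf8, the transcription factor that directs GMP to monocytes, measured 3.46, 6.69, 3.95, 8.11 and 4.14 in the leukemias, against 10.00 and 9.79 in healthy GMP, and Cebpa, the factor needed to form GMP, 4.30, 7.87, 3.78, 8.35 and 4.41 in the leukemias, against 8.96 and 9.23 in healthy GMP. Both were called lower (adjusted p = 0.028 and 0.0495), and both lost the call without leukemia array 1, 3 or 5 or without either healthy array (up to 0.161 for Irf8 and 0.247 for Cebpa). Id2, an inhibitor of helix-loop-helix factors, was higher in every leukemia. It measured 11.25, 10.05, 10.64, 9.45 and 11.09 in the leukemias, against 7.08 and 6.86 in healthy GMP, lowest in arrays 2 and 4, and rose by 3.53 ± 0.35 (SE, adjusted p = 7.03e-06). With Stat3, the signal transducer of G-CSF, Id2 made 2 rises among 20 myeloid transcription factors, against 2 falls. Both counts are near the 8.08% higher and 13.1% lower of all genes. Stat3 rose by 0.95 ± 0.29 (SE, adjusted p = 0.0285), a call lost without leukemia array 3 or 5 or either healthy array (adjusted p = 0.00527 to 0.166 over the omissions).

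**Figure D3:**
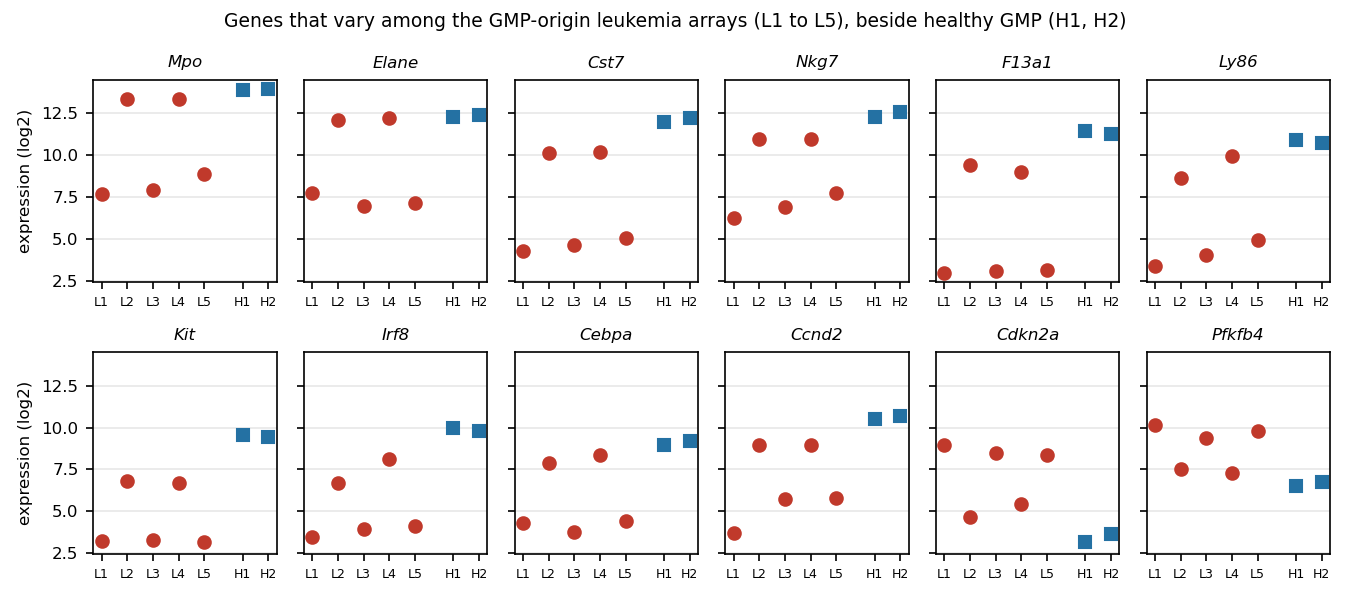
Expression (log2) of 12 genes, chosen after their values were seen, in GMP-origin leukemia arrays 1 to 5 (L1 to L5, circles) and healthy GMP arrays 1 and 2 (H1 and H2, squares). Mpo, Elane, Cst7, Nkg7, F13a1, Ly86, Kit, Irf8, Cebpa and Ccnd2 are higher in leukemia arrays 2 and 4 than in arrays 1, 3 and 5, and Cdkn2a and Pfkfb4 are lower in arrays 2 and 4.

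The Myc network holds partners and antagonists of Myc. Of 11 members 6 rose, Mycn among them, and 1 fell, Myc, and 3 without healthy array 1 and 3 without healthy array 2 rose. Mxd1, which replaces Myc on Max as cells differentiate, measured 11.07, 8.79, 11.16, 9.55 and 11.32 in leukemia arrays 1 to 5, against 6.27 and 6.51 in the healthy arrays. All leukemias were above healthy GMP, most in arrays 1, 3 and 5, a rise of 3.98 ± 0.70 (SE, adjusted p = 0.00108). Mxi1, of the same repressor family, rose by 1.47 ± 0.24 (SE, adjusted p = 0.000534) and Mxd4 by 1.37 ± 0.37 (SE, adjusted p = 0.0182). The Mxd4 call was lost without either healthy array (adjusted p = 0.105 without healthy array 1 and 0.151 without healthy array 2). Of the members named after their values were seen, Mlxip and the repressor Mnt rose close to the threshold (adjusted p = 0.0488 and 0.0462) and lost their calls without either healthy array, in the fit of only the 7 arrays compared, without the filter and after centring on the median. The repressors Mxd3 and Mga were not called (difference -0.78 and 0.54, adjusted p = 0.117 and 0.229).

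In the Bcl2 family the genes that rose beside Bcl2 included promoters of apoptosis. Of 14 members 6 rose and 1 fell, and 4 without healthy array 1 and 3 without healthy array 2 rose. Bbc3, which encodes the p53-induced killer Puma, measured 9.52, 8.54, 8.65, 8.13 and 9.13 in leukemia arrays 1 to 5, against 5.38 and 5.34 in the healthy arrays. Every leukemia was above healthy GMP, with a rise of 3.43 ± 0.56 (SE, adjusted p = 0.000591). Bcl2l11, which encodes Bim, measured 10.94, 9.94, 9.65, 8.44 and 9.82 in the leukemias, against 6.86 and 6.55 in healthy GMP and rose by 3.05 ± 0.45 (SE, adjusted p = 0.000238). Bmf, a further killer of the BH3-only type, measured 8.77, 7.66, 8.18, 6.63 and 9.24 in the leukemias, against 4.17 and 4.04 in healthy GMP, lowest in array 4, and rose by 3.99 ± 0.62 (SE, adjusted p = 0.000417). Bcl2a1a, which blocks apoptosis in neutrophils, rose by 2.46 ± 0.69 (SE, adjusted p = 0.0209) but has near-identical copies, and lost its call without either healthy array (adjusted p = 0.118 without healthy array 1 and 0.156 without healthy array 2).

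Target genes of the tumour suppressor p53, which responds to DNA damage and oncogenes, rose in 15 of 20 cases and fell in 1. The median difference was 2.19, and the count was 10 without healthy array 1 and 10 without healthy array 2. Trp53inp1, a p53-induced nuclear protein, measured 12.49, 11.52, 12.23, 10.88 and 12.85 in leukemia arrays 1 to 5, against 6.30 and 5.56 in the healthy arrays. The leukemias were far above healthy GMP, with arrays 2 and 4 lowest, and it rose by 6.06 ± 0.47 (SE, adjusted p = 4.2e-07). Zmat3, an RNA-binding target of p53, measured 9.05, 8.82, 9.36, 7.83 and 9.72 in the leukemias, against 4.05 and 4.07 in healthy GMP and rose by 4.89 ± 0.58 (SE, adjusted p = 4.03e-05). Phlda3, an inhibitor of Akt signalling, measured 7.98, 7.77, 8.13, 7.09 and 9.01 in the leukemias, against 3.68 and 3.41 in healthy GMP, highest in array 5, and rose by 4.45 ± 0.59 (SE, adjusted p = 0.000107).

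Perp, a membrane protein linked to p53-dependent death, rose by 5.65 ± 1.35 (SE, adjusted p = 0.00892), and the death receptor Fas by 3.44 ± 0.39 (SE, adjusted p = 2.39e-05). Cdkn1a, the p21 inhibitor of cyclin-dependent kinases, measured 11.03, 10.46, 11.22, 11.25 and 12.002 in the leukemias, against 8.27 and 7.54 in healthy GMP and rose by 3.28 ± 0.87 (SE, adjusted p = 0.0155). The calls of Perp and Cdkn1a were lost without either healthy array (adjusted p = 0.0747 without healthy array 1 and 0.0929 without healthy array 2 for Perp, and 0.0777 without healthy array 1 and 0.161 without healthy array 2 for Cdkn1a). Several of these genes are also on other lists, among them Bbc3 and Btg2.

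**Figure D4:**
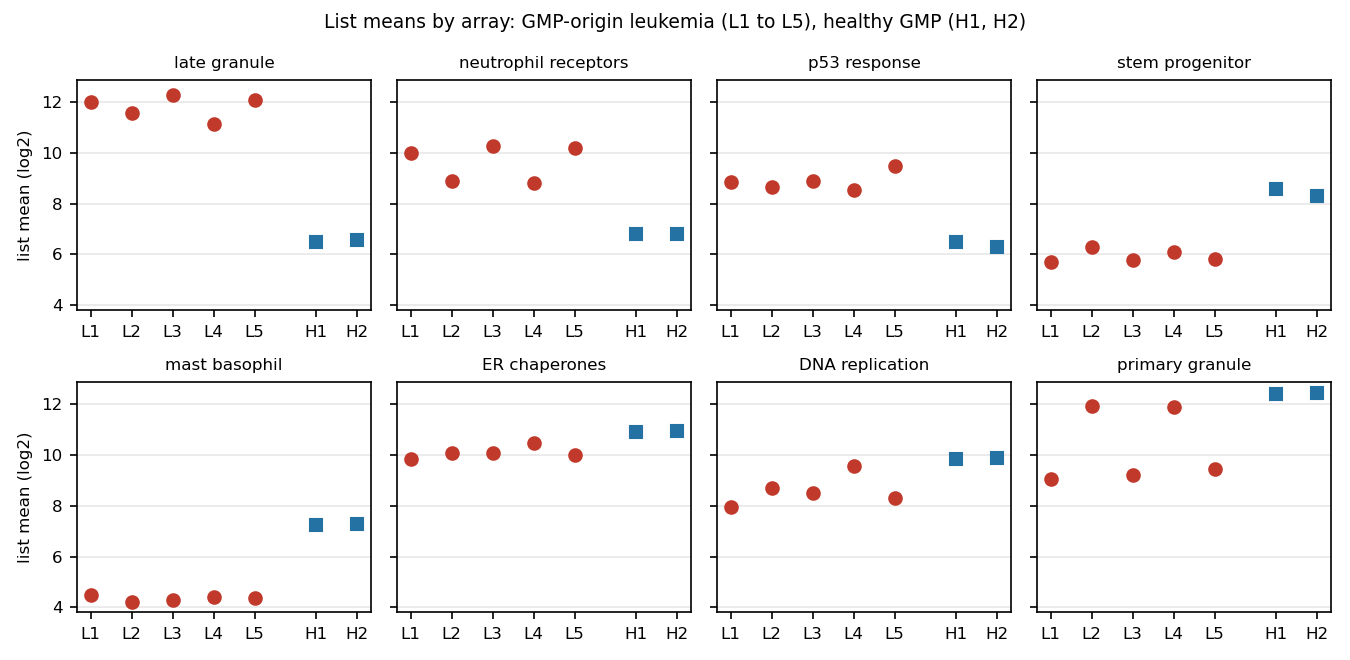
Mean expression (log2) over the tested members of 8 gene lists in each GMP-origin leukemia array (L1 to L5, circles) and each healthy GMP array (H1 and H2, squares). Late granule, neutrophil receptor and p53 response means are higher in all 5 leukemias, progenitor, mast cell and ER chaperone means are lower in all 5, and primary granule means of L2 and L4 lie near the healthy arrays.

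Replication genes fell by modest amounts. Of 34 members, 19 fell and 0 rose, with a median difference of -1.20. Their mean was 7.94, 8.72, 8.52, 9.58 and 8.33 in leukemia arrays 1 to 5, against 9.83 and 9.89 in the healthy arrays, so that array 4 lay close to healthy GMP and array 1 farthest below. Rfc2, a subunit of the clamp loader, measured 8.28, 8.89, 8.74, 9.66 and 8.63 in the leukemias, against 10.45 and 10.58 in healthy GMP, all below healthy, a difference of -1.67 ± 0.29 (SE, adjusted p = 0.00104). Mcm3, of the replicative helicase, measured 7.20, 7.81, 7.51, 8.80 and 7.30 in the leukemias, against 9.67 and 9.64 in healthy GMP, a difference of -1.93 ± 0.46 (SE, adjusted p = 0.0089) that was lost without either healthy array (adjusted p = 0.0834 without healthy array 1 and 0.0816 without healthy array 2). Gins1, of the same helicase complex, differed by -2.06 ± 0.57 (SE, adjusted p = 0.0198) and lost its call likewise (adjusted p = 0.125 without healthy array 1 and 0.139 without healthy array 2). The count of falls was 2 without healthy array 1 and 2 without healthy array 2, 12 without leukemia array 1, 12 without leukemia array 3 and 11 without leukemia array 5, and 6 when the fit held only the 7 arrays compared. Of the 28 members with a promoter sequence, 7 (25.0%) held the E2F motif TTTCGCGC on either strand, against 0.374% of all promoters. All promoters include those of genes that were not tested here, so the shares are of unlike sets. Binding was not tested.

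Of 26 mitosis genes 3 were called lower, a share near the 13.1% of all genes, and 0 higher, with a median difference of -0.97. However, 24 of the 26 lay below both healthy arrays in all 5 leukemias. Over all genes tested, 43.5% had no overlap, in either direction. The list mean was 8.13, 8.10, 8.81, 8.90 and 8.42 in leukemia arrays 1 to 5, against 9.41 and 9.41 in the healthy arrays. Cenpa, the centromeric histone, differed by -0.95 ± 0.23 (SE, adjusted p = 0.00952), lost without either healthy array (adjusted p = 0.072 without healthy array 1 and 0.103 without healthy array 2). The other 2 were Racgap1, of the cytokinetic machinery (difference -0.998, adjusted p = 0.0162 to 0.207 over the omissions), and Foxm1, a factor for G2 genes (difference -0.63, adjusted p = 0.0201 to 0.584). The mitosis count was 1 without leukemia array 1, 2 or 5, 0 without healthy array 1 and 1 without healthy array 2.

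Among 20 genes of the G1 phase, 3 rose and 3 fell, against 8.08% higher and 13.1% lower of all genes. Ccnd2, the D-type cyclin, measured 3.71, 8.95, 5.76, 8.94 and 5.80 in leukemia arrays 1 to 5, against 10.50 and 10.66 in the healthy arrays. Arrays 2 and 4 were the highest leukemias, and all 5 lay below healthy GMP, a difference of -3.95 ± 1.04 (SE, adjusted p = 0.0155). E2f2, a transcription factor of the cell cycle, measured 9.86, 8.50, 9.37, 7.99 and 9.10 in the leukemias, against 6.23 and 6.13 in healthy GMP and rose by 2.79 ± 0.62 (SE, adjusted p = 0.0061). Both calls were lost without either healthy array (adjusted p = 0.105 without healthy array 1 and 0.126 without healthy array 2 for Ccnd2, and 0.0609 without healthy array 1 and 0.0718 without healthy array 2 for E2f2). Without healthy array 1 no member of this list was called, and without healthy array 2 the calls were 0 higher and 1 lower. Cdkn2a, the locus of the p16 and Arf tumour suppressors, singled out after its values were seen, measured 8.97, 4.68, 8.48, 5.44 and 8.37 in the leukemias, against 3.17 and 3.65 in healthy GMP. It was high in arrays 1, 3 and 5, lower in 2 and 4, lowest in healthy GMP, and not called (adjusted p = 0.1).

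Chaperones of the endoplasmic reticulum, which fold secreted and granule proteins, fell in 11 of 18 cases and rose in 0, with a median difference of -0.80. The count was 4 without healthy array 1 and 4 without healthy array 2. Calr, calreticulin, measured 11.02, 11.38, 10.92, 11.68 and 10.86 in leukemia arrays 1 to 5, against 12.51 and 12.72 in the healthy arrays. No leukemia reached the healthy level, a difference of -1.44 ± 0.21 (SE, adjusted p = 0.000261). Pdia6, a disulfide isomerase, measured 9.86, 10.34, 9.94, 10.76 and 10.11 in the leukemias, against 11.63 and 11.60 in healthy GMP and differed by -1.41 ± 0.24 (SE, adjusted p = 0.000784). Creld2, Pdia4 and Manf, all induced by unfolded protein, differed by -1.56, -1.56 and -1.50. Creld2 lost its call without healthy array 2 (adjusted p = 0.0927), Manf without either healthy array (adjusted p = 0.0863 without healthy array 1 and 0.0977 without healthy array 2), and Pdia4 without those or leukemia array 1 (adjusted p = 0.0199 to 0.172 over the omissions).

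Ribosome biogenesis genes, typical targets of Myc, gave 1 fall and 0 rises of 27, with a median difference of -0.10, near that of all genes. Rrp12, a factor for export of ribosomal subunits, was the one that fell (difference -1.13, adjusted p = 0.0175 to 0.197 over the omissions). Their mean was 9.06, 9.44, 8.77, 9.41 and 8.95 in leukemia arrays 1 to 5, against 9.25 and 9.26 in the healthy arrays, so the groups overlapped. Of the 23 members with a promoter sequence, 5 (21.7%) held the E-box CACGTG, against 8.09% of all promoters. These too include genes that were not tested here, and binding was not tested. Nucleotide and one-carbon genes likewise gave 1 fall of 19, that of Umps, a pyrimidine synthesis enzyme (difference -1.34 ± 0.32 (SE, adjusted p = 0.00843)), lost without either healthy array (adjusted p = 0.0814 without healthy array 1 and 0.0781 without healthy array 2). Without leukemia array 2 they gave 2 falls, and without leukemia array 4, 3.

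In glycolysis 4 of 20 genes rose and 4 fell, against 8.08% higher and 13.1% lower of all genes. Slc2a3, the high-affinity glucose transporter of neutrophils, measured 11.97, 11.67, 11.85, 11.25 and 11.71 in leukemia arrays 1 to 5, against 7.73 and 7.85 in the healthy arrays. All leukemias lay well above healthy GMP, a rise of 3.90 ± 0.32 (SE, adjusted p = 6.69e-07). The lactate exporter Slc16a3 rose by 1.59 ± 0.27 (SE, adjusted p = 0.000856), whereas the phosphofructokinase Pfkm fell by 1.62 (adjusted p = 0.000142). Pfkfb4, a regulator of that step, measured 10.18, 7.53, 9.38, 7.31 and 9.77 in the leukemias, against 6.51 and 6.78 in healthy GMP, with arrays 2 and 4 nearest healthy GMP (adjusted p = 0.0484, and 0.0132 to 0.232 over the omissions). Without leukemia array 1, 3 or 5, 2 genes rose and 2 fell, and without either healthy array 2 rose and 1 fell.

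The mitochondrial respiratory chain gave 3 falls of 24, a share near the 13.1% of all genes lower, and 0 rises. These calls did not hold when either healthy array was left out. There were 8 falls without leukemia array 2 and 7 without leukemia array 4. The electron carrier Cycs, cytochrome c, differed by -0.90 ± 0.23 (SE, adjusted p = 0.0137). In lipid synthesis 3 of 19 genes fell and 1 rose, near the 13.1% lower and 8.08% higher of all genes. Elovl6, a fatty acid elongase, measured 3.07, 3.60, 3.62, 3.39 and 3.49 in the leukemias, against 7.80 and 7.55 in healthy GMP, at background in every leukemia, and differed by -4.24 ± 0.31 (SE, adjusted p = 2.74e-07). The fall of Dhcr7, the last enzyme of cholesterol synthesis (difference -1.35), was lost without either healthy array (adjusted p = 0.0766 without healthy array 1 and 0.167 without healthy array 2), and 1 gene fell without either healthy array.

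Of 18 genes for amino acid transport and stress, 4 rose and 1 fell, against 8.08% higher and 13.1% lower of all genes. Ddit4, an inhibitor of the growth kinase mTOR, measured 11.50, 10.28, 10.63, 10.65 and 12.04 in the leukemias, against 7.92 and 7.19 in healthy GMP, high in all leukemias, and rose by 3.46 ± 0.46 (SE, adjusted p = 9.63e-05). Chac1, a glutathione-degrading enzyme, measured 5.87, 4.13, 6.12, 6.00 and 5.86 in the leukemias, against 3.799 and 3.82 in healthy GMP, with array 2 near the healthy level, and rose by 1.78 ± 0.41 (SE, adjusted p = 0.00744). The count of rises was 1 without healthy array 1 and 2 without healthy array 2, and Chac1 was lost in both (adjusted p = 0.0754 without healthy array 1 and 0.0732 without healthy array 2).

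Lysosomal genes gave 2 rises and 2 falls of 18, near the 8.08% higher and 13.1% lower of all genes. The protease Ctss, cathepsin S, rose by 2.29 ± 0.46 (SE, adjusted p = 0.0032), and Gaa, acid glucosidase, fell by 1.79, both lost without healthy array 2 (adjusted p = 0.0848 and 0.0594). The rises were 1 without healthy array 1 and 0 without healthy array 2, and 1 without leukemia array 1 or 5, and the falls 1 without healthy array 1 and 0 without healthy array 2.

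Cytokine receptors gave 3 rises and 2 falls of 19, against 8.08% higher and 13.1% lower of all genes. Il6st, the shared signalling chain gp130 of the interleukin-6 family, measured 3.68, 4.43, 3.81, 4.72 and 4.01 in the leukemias, against 6.94 and 6.38 in healthy GMP, below both healthy arrays in every leukemia, and differed by -2.53 ± 0.47 (SE, adjusted p = 0.00163). Il17ra, an interleukin-17 receptor chain, rose by 1.33 ± 0.35 (SE, adjusted p = 0.0144), lost without either healthy array (adjusted p = 0.102 without healthy array 1 and 0.118 without healthy array 2). The interferon-gamma receptor Ifngr1 and the receptor chain Csf2rb2 were close to the threshold (adjusted p = 0.0495 and 0.0465), and over the omissions ran from 0.0378 to 0.249 and from 0.0463 to 0.357. Among 13 feedback inhibitors 3 fell and 0 rose, against 13.1% lower of all genes. Most of these calls did not hold when either healthy array was left out. Spred2, a brake on Ras signalling, measured 4.37, 6.58, 5.70, 6.38 and 5.53 in the leukemias, against 8.08 and 8.18 in healthy GMP and differed by -2.42 ± 0.50 (SE, adjusted p = 0.0036), lost without healthy array 2 (adjusted p = 0.0523).

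Interferon-induced genes had 0 calls of 18 with limma, and 3 had an unadjusted p under 0.05. Without leukemia array 2, 2 rose. Ifit3, which limits viral translation in infected cells, measured 4.05, 4.07, 8.49, 5.82 and 7.53 in leukemia arrays 1 to 5, against 3.68 and 3.89 in the healthy arrays. Arrays 3 and 5 were high, array 4 intermediate, and arrays 1 and 2 near healthy GMP (adjusted p = 0.287). The list mean was 4.94, 4.74, 7.09, 5.98 and 6.63 in leukemia arrays 1 to 5, against 5.26 and 5.26 in the healthy arrays. Of 18 immediate early genes, which respond within minutes to stimuli and to cell handling, 4 rose and 0 fell, and 2 without healthy array 1 and 1 without healthy array 2 rose. Nr4a1, an orphan nuclear receptor, rose by 3.14 ± 0.63 (SE, adjusted p = 0.0031), lost without healthy array 2 (adjusted p = 0.0984), and Btg2, an antiproliferative p53 target, by 2.83 ± 0.42 (SE, adjusted p = 0.000255). Fosb, a partner of Jun, measured 5.58, 4.79, 5.59, 8.69 and 6.49 in the leukemias, against 8.85 and 9.01 in healthy GMP and was not called (adjusted p = 0.127).

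Chromatin modifiers gave 4 falls and 1 rise of 23, not far from the 13.1% lower and 8.08% higher of all genes. The falls did not hold when either healthy array was left out. Dnmt3b and Dnmt3a, the de novo DNA methyltransferases, differed by -1.74 ± 0.38 (SE, adjusted p = 0.00533) and -1.84 ± 0.49 (SE, adjusted p = 0.0161). Ezh2, the histone methyltransferase of dividing cells, measured 7.97, 8.32, 8.65, 9.53 and 8.72 in the leukemias, against 10.15 and 10.05 in healthy GMP, a difference of -1.47 ± 0.35 (SE, adjusted p = 0.0094), while its relative Ezh1 rose by 0.95 ± 0.27 (SE, adjusted p = 0.021). The adjusted p values of Dnmt3b were 0.0645 without healthy array 1 and 0.0572 without healthy array 2, of Dnmt3a 0.133 without healthy array 1 and 0.0983 without healthy array 2, of Ezh2 0.0943 without healthy array 1 and 0.0767 without healthy array 2, and of Ezh1 0.145 without healthy array 1 and 0.126 without healthy array 2.

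Among the largest rises outside the lists, Ceacam10, a secreted member of the carcinoembryonic antigen family in mice, measured 11.50, 10.30, 12.15, 10.00 and 12.02 in the leukemias, against 3.13 and 3.26 in healthy GMP and rose by 8.00 ± 0.95 (SE, adjusted p = 3.76e-05). Chil1, a chitinase-like glycoprotein, measured 10.56, 9.12, 10.69, 9.01 and 10.25 in the leukemias, against 3.09 and 3.25 in healthy GMP and rose by 6.76 ± 0.81 (SE, adjusted p = 4.2e-05). Tmem45a2, a transmembrane protein gene, rose by 6.92 ± 0.88 (SE, adjusted p = 7.6e-05).

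Among the falls, Cnn3, an actin-binding calponin, measured 3.05, 3.58, 2.77, 3.33 and 2.93 in the leukemias, against 10.46 and 10.25 in healthy GMP and differed by -7.23 ± 0.62 (SE, adjusted p = 1.17e-06). Lgals1, galectin-1, a secreted sugar-binding protein, measured 3.60, 7.65, 6.18, 8.75 and 6.36 in leukemia arrays 1 to 5, against 12.27 and 12.49 in the healthy arrays. Its leukemia values were widely spread, all below healthy GMP, with a difference of -5.87 ± 0.94 (SE, adjusted p = 0.000555). B3gnt5, a glycosphingolipid enzyme, differed by -5.94 ± 0.47 (SE, adjusted p = 5.81e-07), Cibar1 by -5.84 ± 0.46 (SE, adjusted p = 4.66e-07) and Bex6 by -5.66 ± 0.75 (SE, adjusted p = 0.0001).

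Whether these changes differed from those of the DN2-labelled leukemia was tested as the difference between the 2 changes, each leukemia minus its own healthy cell. Over all genes 1473 were called, or 12.7% of those tested, 730 positive and 743 negative. The count was 913 without healthy GMP array 1 and 806 without healthy GMP array 2. Of the 2463 genes called between GMP leukemia and healthy GMP, 720 were also called in this test.

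Mycn was higher than in healthy cells in both origins. It differed by 8.28 in the GMP leukemia and 7.51 in the DN2-labelled leukemia, and the difference between them was 0.77 ± 2.13 (SE, adjusted p = 0.863). Myc differed by -4.46 in the GMP leukemia and -4.40 in the DN2-labelled leukemia, a difference of -0.07 ± 0.37 (SE, adjusted p = 0.931). Neither difference was called, and for Mycn the standard error is as large as many called differences, so a sizeable difference could have been missed.

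Of the 16 late granule genes 11 were called in this test, against 12.7% of all genes. The change in the GMP leukemia is one side of the difference, so genes with a large change there are favoured. Olfm4 differed from healthy cells by 9.83 in the GMP leukemia and 0.16 in the DN2-labelled leukemia, a difference of 9.66 ± 0.43 (SE, adjusted p = 1.37e-09). Ltf differed from healthy cells by 9.24 and 0.11 in the same order, a difference of 9.13 ± 0.57 (SE, adjusted p = 4.83e-08). S100a6, of the S100 genes, differed from healthy cells by 8.11 and 4.96, a difference of 3.15 ± 0.51 (SE, adjusted p = 0.000718), with the larger value in the GMP leukemia.

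Of the 21 stem and progenitor genes 9 were called in this test, and 4 of the 8 mast cell and basophil genes. Cd34 differed from healthy cells by -7.14 in the GMP leukemia and -6.31 in the DN2-labelled leukemia, a difference of -0.83 ± 0.26 (SE, adjusted p = 0.049), which is small beside either change. Sox4 differed from healthy cells by -7.72 and -1.68, a difference of -6.04 ± 0.82 (SE, adjusted p = 0.000151). Cpa3, of the mast cell genes, differed from healthy cells by -6.91 and -9.01, a difference of 2.10 ± 0.41 (SE, adjusted p = 0.0029), with the larger size in the DN2-labelled leukemia. Cd3e averaged 8.41 in the DN2-labelled leukemia and 5.52 in healthy DN2 cells, although the sort is described as excluding CD3. The sort reads protein at the cell surface and the array reads RNA, so this value cannot show whether the sort excluded CD3-positive cells. The comparison of origins rests on the labels of the DN2 samples.

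**Figure D5:**
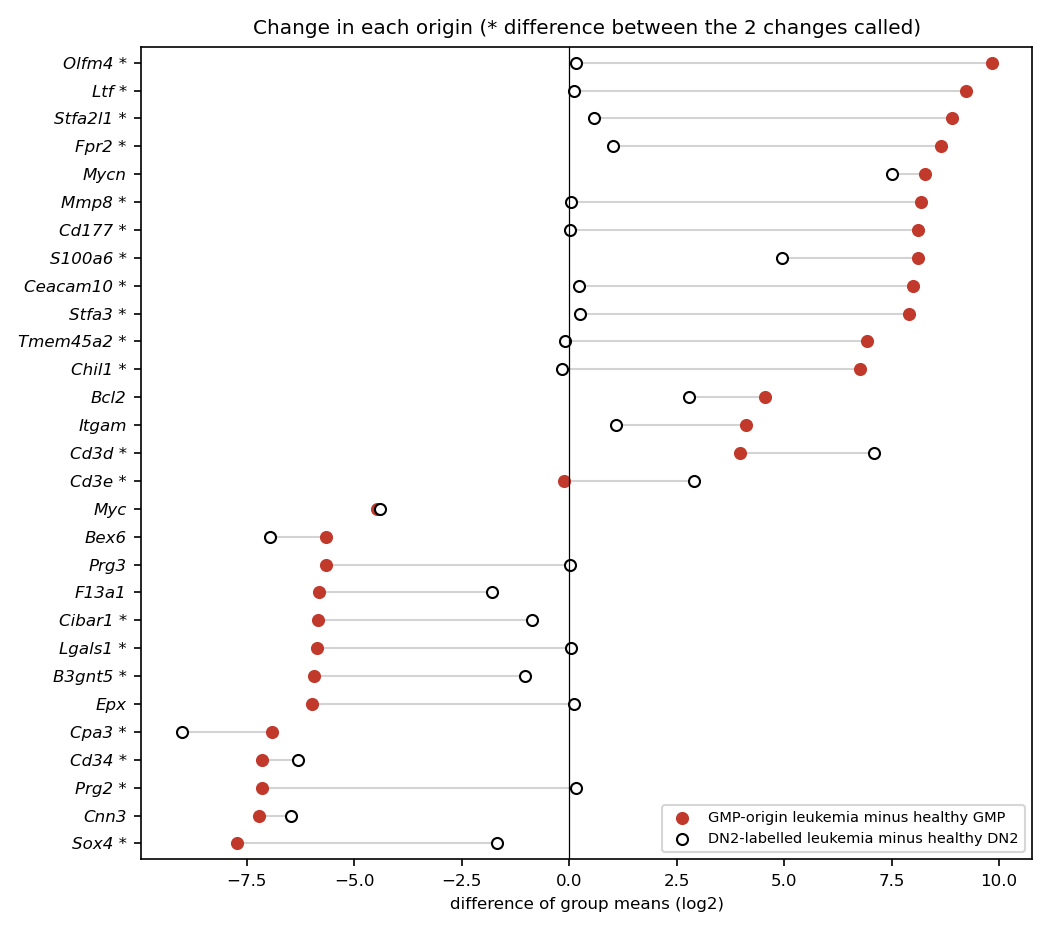
Difference of group means (log2) for 29 named genes, with GMP-origin leukemia minus healthy GMP as filled circles and DN2-labelled leukemia minus healthy DN2 as open circles. Stars mark the 20 genes whose changes differed between the origins; Olfm4 lies at 9.83 in the GMP leukemia and 0.16 in the DN2-labelled leukemia, and Mycn at 8.28 and 7.51 in that order.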

How the data were processed

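The deposited values are log2 expression per probe set, which the authors summarised with RMA (tools RMA and affy, per the submitters' processing notes). Tool versions and the scope of the normalization are not stated. Labelling used a 3' IVT kit on 300 ng of total RNA, per the labels' protocols. Of 45141 probe sets, 104 were controls, 28898 carried a single gene symbol in the platform annotation (28689 of these matched RefSeq, GRCm38.p6, for current names), 551 carried several and 15588 were unlisted; the last 2 kinds were not named.

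A gene was read from its brightest probe set by mean over all arrays (17097 genes). Genes stayed in the test when the mean of at least 1 group lay above 3.83, the median of the table, and 11629 did. Two-sided limma tests (version 3.58.1, R 4.3.3) used a single lmFit and eBayes model of all 17 arrays with 5 group means, no covariate, and Benjamini-Hochberg adjustment over the genes tested. Precision is limited by the number of arrays. The procedure was tested on simulated data with independent noise of the same spread in every group. In the real data the healthy arrays are closer to each other than the leukemia arrays are, so the simulation does not cover that setting.

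Labels assigned the arrays to groups, while the comparison and the 39 gene lists were chosen with earlier results of these data known. The genes named are Myc, Mycn, Bcl2 and the sort genes, the 12 largest rises and 12 largest falls among called genes without overlap between arrays, and per list at most 5 members ranked by absolute difference, called ones before others. Shared replicate numbers were not treated as pairs. Deviations of same-numbered arrays from their group means correlated at 0.003 and 0.082, over 2 pairs. The deviations of the 2 healthy arrays mirror each other, so these values cannot show whether arrays were paired. Alternatives covered the arrays in the fit, filters, probe set rule, scaling, empirical Bayes settings, array weights, the replicate block and leaving out each array. Figures were drawn with matplotlib 3.10.9 in Python 3.11.15.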

Additional observations from a re-analysis of the deposited data

Results flagged for a closer look

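Of 241 genes and list means screened over the 5 leukemia arrays, 18 had a single array far from the others (a gap to the nearest array above 0.71 of the range). Chance flags about 1 in 20 such sets of values, and no cause of any was tested. Leukemia array 2 was high at the Y-linked genes Eif2s3y (9.89), Kdm5d (7.62) and Uty (4.59) and low at Xist (6.84), and the mean of the sex-linked genes was 7.24. It was also high at Sox4 (5.15), Muc13 (4.76), Csf2rb2 (7.36) and Car1 (4.43), low at Chac1 (4.13), and its erythroid mean was 6.05. Leukemia array 4 was low at Stfa2l1 (10.94) and Cd177 (10.47) and high at Bex6 (5.43), Cd28 (3.68), Blnk (3.63) and Fcer1a (2.80), the last 3 near background. Leukemia array 1 was high at Jchain (4.51), an antibody-joining chain of plasma cells.

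The change against healthy cells differed between the GMP and the DN2-labelled leukemia at 20 of the 29 genes compared, by the limma test of the difference itself, against 12.7% of all genes tested. Of the 29, 24 were chosen for a large change in the GMP leukemia, which is one side of the difference, so the count of 20 describes the choice and supports nothing further. The difference, GMP minus DN2-labelled, was positive at Olfm4 (9.66), Ltf (9.13), Stfa2l1 (8.34), Mmp8 (8.14), Cd177 (8.09), Ceacam10 (7.78), Stfa3 (7.67), Fpr2 (7.63), Tmem45a2 (7.01), Chil1 (6.92), S100a6 (3.15) and Cpa3 (2.10). It was negative at Prg2 (-7.31), Sox4 (-6.04), Lgals1 (-5.92), Cibar1 (-4.98), B3gnt5 (-4.92), Cd3d (-3.12), Cd3e (-3.01) and Cd34 (-0.83). The calls of Prg2 and Cd34 lay close to the threshold (adjusted p = 0.0419 and 0.049).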

How the results depend on the processing

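The count of genes called between GMP leukemia and healthy GMP (2463) was 1761 to 2483 under other fits, filters, probe set rules and scalings, and with a replicate block it was 2418, of which 2058 were among the 2463. With array weights 6053 genes were called, and 5241 in place of 1473 for the difference from the DN2-labelled leukemia. That setting gives each healthy GMP array a weight of 2.19 and leukemia array 4 one of 0.275. Leaving out 1 array gave 848 (without healthy array 2) to 3342 (without leukemia array 4) calls in the first comparison and 806 to 1749 in the second. Without healthy array 1, the first gave 889 calls and the second 913. The 2 arrays per healthy group are the main limit, since 68 of the 140 called named genes lost their call without healthy array 1 and 69 without healthy array 2. The replicate block gave 1402 in the second comparison and ended 18 calls of named genes.

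Directions turned only at genes near 0 or with an outlying array, and at Bcl2. With the mean of its probe sets Bcl2 was -0.19, Cstb -0.0256 and Rac1 -0.0454. Cstb ran from -0.0783 to 0.28 and Cxcl12 from -0.0166 to 0.13 when 1 array was left out. Xist was 0.0066 with array weights and ran from -1.12 to 0.40, and Eif2s3y ran from -0.16 to 1.63, both turned by leaving out leukemia array 2. The cause was not tested. Of 624 list medians under an alternative, 593 moved by less than the spread between arrays and 31 by more. There is no detection call, and signal near the median of the table is background, so differences against it are compressed.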
